A study of Drosophila melanogaster with 1908 samples.

Results

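The 10 genes described here are 3 head gap genes and 7 genes of the eye and anterior brain program of the fly. They are orthodenticle (oc), empty spiracles (ems), buttonhead (btd), eyeless (ey), twin of eyeless (toy), sine oculis (so), eyes absent (eya), Optix, dachshund (dac) and homeobrain (hbn). They were taken by name as 10 of the 23932 gene rows of a single-cell RNA matrix, and every one of them was present. The study collected wild-type Canton S embryos of Drosophila melanogaster at 25°C in 11 overlapping windows between 0 and 20 h after egg laying, froze them, and profiled their nuclei by sci-RNA-seq3, in which combinatorial indexing marks each nucleus without isolating it in a droplet. All groups were whole embryos of this 1 strain with no treatment or mutation, so a sum of nuclei holds every embryonic tissue and pools many embryos. The groups used here were the windows 0-2 h and 1-3 h (4 experiments each), 2-4 h (2), 3-7 h (6), 4-8 h (4) and the 6 windows 6-10 h, 8-12 h, 10-14 h, 12-16 h, 14-18 h and 16-20 h (3 each).

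The head gap genes act in the anterior blastoderm, where their overlapping domains, set by the maternal morphogen Bicoid, lay out the segments of the procephalon. oc and ems encode homeodomain proteins, and btd encodes a zinc finger protein. The retinal determination genes work as a network in the eye primordium: ey and toy encode paired-box proteins at its top, so encodes a homeodomain protein that binds DNA together with the cofactor and phosphatase Eya, and dac encodes a nuclear cofactor. Optix is a homeodomain relative of so, and hbn is a paired-type homeobox gene of the anterior brain. Many of these genes also act outside the eye, in the embryonic brain, the ventral nerve cord and the mesoderm.

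In the Ensembl annotation of the BDGP6 assembly (dm6), all 10 are protein-coding. oc lies at X:8630159-8650681 on the minus strand and btd at X:9694186-9697558 on the plus strand. ems lies at 3R:13901853-13904620 on the plus strand. ey (4:697689-721173) and toy (4:989725-1007922) are both on the plus strand of chromosome 4. eya (2L:6527447-6546976) and dac (2L:16466512-16485998) are on the minus strand of 2L. so (2R:7419350-7434872) and Optix (2R:8031283-8042529) are on the plus strand of 2R, and hbn (2R:20954668-20960909) is on its minus strand.

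The matrix held 347601285 UMIs in 547805 cells (here, nuclei). UMIs were summed over the cells of 1 experiment and 1 window, which gave 38 sums of 462334 to 36032867 UMIs. Levels are CPM, the UMIs of a gene divided by all UMIs of the sum and multiplied by 1000000, and the experiment is the replicate. Of the cells collected at 0-2 h, 2190 (2.78%) had an inferred age of 4 h or more, so the earliest window also held older nuclei. No cell name was duplicated, although 460 combinations of index and barcode occurred in more than 1 experiment. In sums over whole embryos, fewer cells of a type and less RNA per cell cannot be told apart.

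All 10 genes were sparse. oc was the most often detected, with 53394 UMIs in 32256 cells (5.89% of all cells), and hbn the least, with 5165 UMIs in 3420 cells (0.624%). The genes differed in how many UMIs a detecting cell held. A cell with a dac UMI held 1.76 of them on average and 41.01% of such cells held at least 2, and the means were 1.66 for oc, 1.57 for eya and 1.51 for hbn. For btd and ey the means were 1.09 and 1.10, and 7.99% and 7.76% of the detecting cells held at least 2. Levels are not compared between genes.

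The early rise was the clearest change in time. In the comparison of 2-4 h with 0-2 h, 9 of the 10 genes rose and only ey did not pass the test (edgeR quasi-likelihood F test, FDR 0.05). Of 12116 genes tested, 21.5% were called higher and 13.6% lower in this comparison, and the median log2 fold change was 4.89 over the 10 genes, against 0.0498 over all genes tested. The same 9 genes were called when each experiment was left out and under every other setting tried.

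Among the head gap genes, oc had 334.5 and 322.4 CPM at 2-4 h (experiments 11 and 12), against 6.75, 6.06, 7.86 and 5.29 CPM at 0-2 h (experiments 2, 10, 11 and 12). Its log2 fold change was 5.72 ± 0.32 (SE, adjusted p = 1.90e-15). ems had 91.9 and 70.6 CPM at 2-4 h, against 1.23, 2.84, 2.38 and 1.25 CPM at 0-2 h, a log2 fold change of 5.37 ± 0.50 (adjusted p = 6.57e-11). All values at 2-4 h lay far above all values at 0-2 h for both genes. btd had 78.1 and 74.4 CPM at 2-4 h, against 1.23, 1.35, 1.87 and 1.12 CPM at 0-2 h, a log2 fold change of 5.73 ± 0.52 (adjusted p = 3.72e-11). In the 4 sums of 1-3 h, oc was at 43.004 to 62.7 CPM. ems was at 4.33 to 13.04 CPM there, and btd at 4.33 to 12.4 CPM. Each gene lay there above all of its own values at 0-2 h and below those at 2-4 h.

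hbn rose as well, with 36.04 and 25.2 CPM at 2-4 h, against 0.374, 0.504 and 0.644 CPM at 0-2 h in experiments 10, 11 and 12. In experiment 2 it had 0 of 1629837 UMIs, which allows a level of up to 1.84 CPM (counting error only). Its log2 fold change of 5.99 ± 0.46 (adjusted p = 8.94e-13) was the highest estimate of the 10. At 1-3 h hbn stood at 21.6 CPM in experiment 2 and between 5.35 and 7.38 CPM in the other 3 experiments.

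The eye genes lay low at 0-2 h and differed in how far they had risen by 2-4 h. Optix had 25.5 and 22.7 CPM at 2-4 h, against 0.614, 1.57, 0.420 and 0.305 CPM at 0-2 h (log2 fold change 5.19 ± 0.48). dac had 16.2 CPM in both sums of 2-4 h, against 1.05, 0.532 and 0.712 CPM at 0-2 h in experiments 10, 11 and 12 and no UMI in experiment 2 (upper limit 1.84 CPM), a log2 fold change of 4.58 ± 0.46. eya had 18.7 and 21.4 CPM at 2-4 h, against 1.23, 2.84, 0.756 and 0.441 CPM at 0-2 h (log2 fold change 4.07 ± 0.41). Each of these genes was higher in both later sums than in any sum of 0-2 h. toy had 34.5 and 40.1 CPM at 2-4 h, against 3.07, 1.65, 3.27 and 1.83 CPM at 0-2 h (log2 fold change 3.96 ± 0.40). so had 9.98 and 7.12 CPM at 2-4 h, against 2.45, 1.35, 0.616 and 0.169 CPM at 0-2 h (log2 fold change 3.55 ± 0.51). Adjusted p-values of these 5 genes ran up to 8.07e-07, that of so.

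ey, one of the paired-box genes at the top of the eye network, was the exception. It had 7.79 and 5.18 CPM at 2-4 h, against 6.14, 4.64, 6.04 and 4.58 CPM at 0-2 h, and the 2 groups overlapped. The log2 fold change was 0.47 ± 0.43 (adjusted p = 0.454). In the 0-2 h window, ey was also the one gene of the 10 whose level was lower in cells aged 4 h or more than in cells aged under 2 h, at 1.92 CPM (2 UMIs in 2190 cells) against 5.31 CPM in 73407 cells. The other 9 genes were higher in the older cells of that window, for example eya at 34.5 CPM in cells aged 4 h or more, against 0.541 CPM in cells aged under 2 h. These ages were inferred from the same expression values and carry no test.

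**Figure D1:**
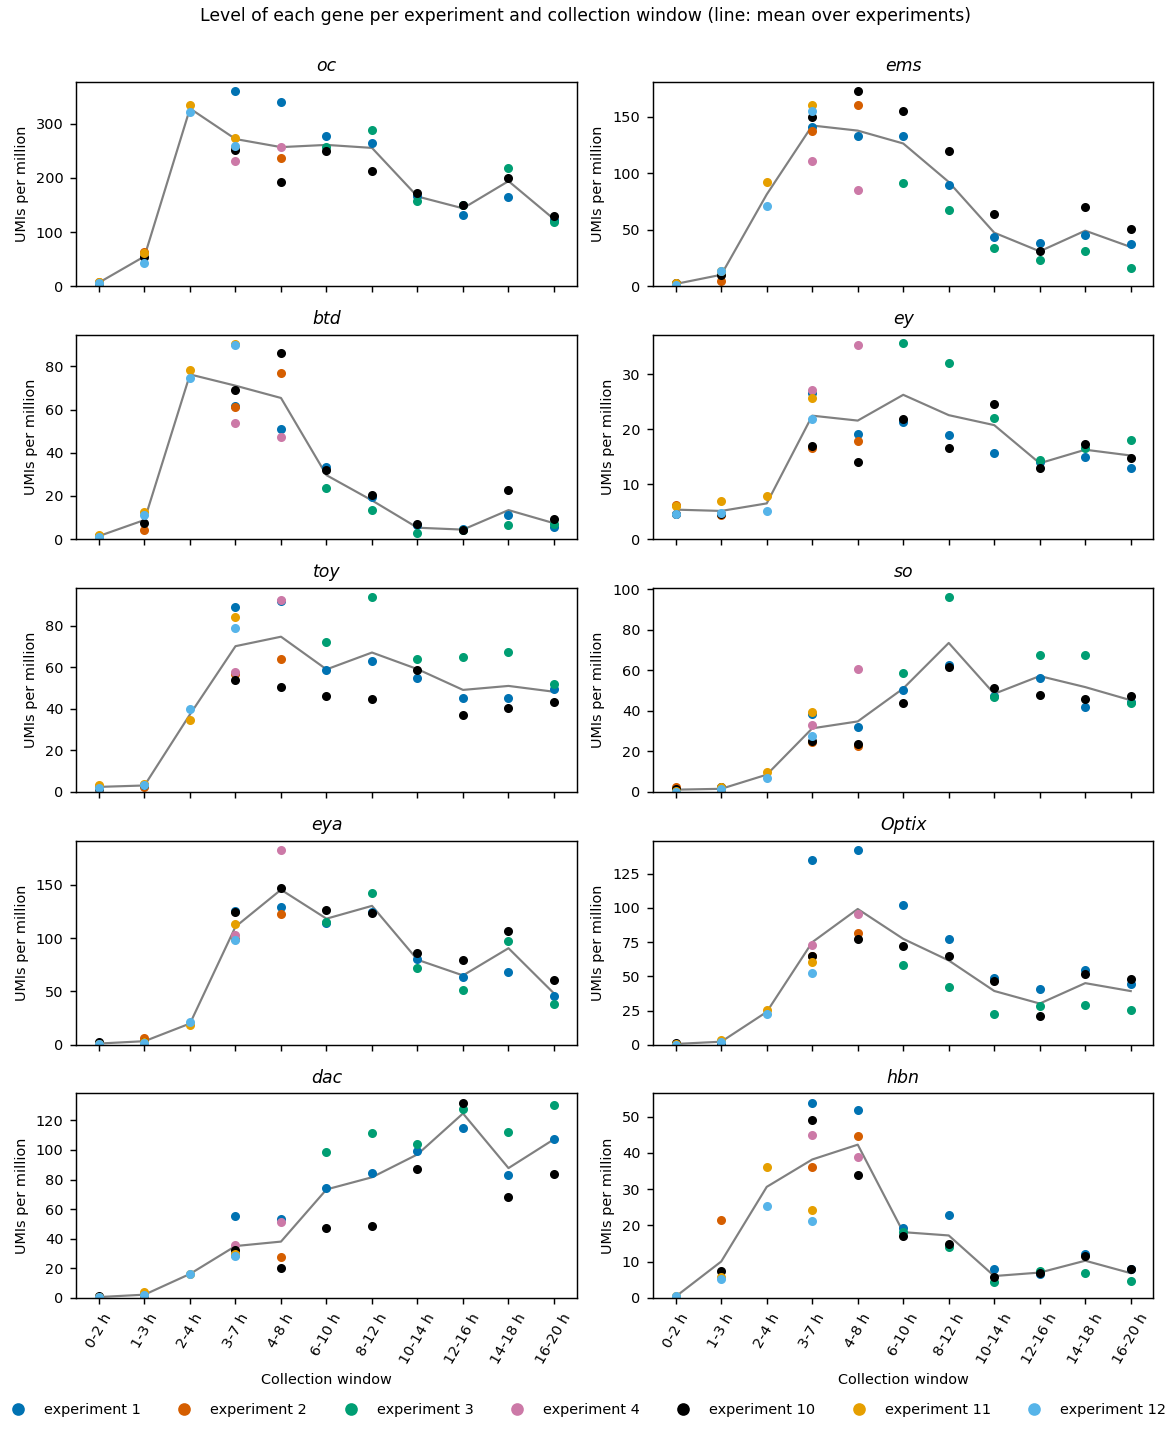
Level of each of the 10 genes in CPM (y axis, from 0, a separate scale for each gene) in the 11 collection windows (x axis), with 1 point per experiment and a line through the means over experiments. btd, ems and hbn have their highest means by 4-8 h and lie lower from 10-14 h on, whereas dac has its highest mean, 124.7 CPM, at 12-16 h.

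Between 2-4 h and 6-10 h the genes parted. In the comparison of 6-10 h with 2-4 h, 5 genes rose (eya, so, dac, ey and Optix), 2 fell (btd and hbn), and oc, ems and toy did not pass the test. In this comparison 17.6% of all genes tested were called higher and 14% lower, and the median log2 fold change was 0.739 over the 10 genes, against 0.304 over all genes. The 2 windows shared no experiment, since 2-4 h came from experiments 11 and 12 and 6-10 h from experiments 1, 3 and 10.

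The partners so and eya had the highest estimates, but differences between genes were not tested. eya had 113.8, 114.6 and 125.9 CPM at 6-10 h (experiments 1, 3 and 10), against 18.7 and 21.4 CPM at 2-4 h, a log2 fold change of 2.14 ± 0.44 (adjusted p = 4.45e-04), and it was called without any single experiment. so had 50.3, 58.9 and 44.1 CPM at 6-10 h, against 9.98 and 7.12 CPM at 2-4 h (log2 fold change 2.06 ± 0.54, adjusted p = 0.00429). For both genes every sum of 6-10 h lay above every sum of 2-4 h. Without experiment 12, so was at 1.67 (adjusted p = 0.0742).

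The other 3 that rose were less stable. dac had 74.5, 98.5 and 46.97 CPM at 6-10 h, against 16.2 CPM in both sums of 2-4 h (log2 fold change 1.74 ± 0.48, adjusted p = 0.00604). It was at 2.09 without experiment 11 (adjusted p = 0.0718) and at 1.51 without experiment 12 (adjusted p = 0.136). ey had 21.2, 35.6 and 21.9 CPM at 6-10 h, against 7.79 and 5.18 CPM at 2-4 h (log2 fold change 1.48 ± 0.47, adjusted p = 0.0156). All sums of the later window were above those of the earlier one for both genes. ey was at 1.08 without experiment 12 (adjusted p = 0.256) and at 1.21 without experiment 3 (adjusted p = 0.0739). Optix had 102.2, 58.01 and 72.1 CPM at 6-10 h, against 25.5 and 22.7 CPM at 2-4 h (log2 fold change 1.23 ± 0.48, adjusted p = 0.0471). Its estimate lay between 0.90 and 1.66 when experiment 1, 4, 10, 11 or 12 was left out, and none of these 5 fits called it. With experiment as a block Optix was at 1.04 (adjusted p = 0.0677). In cells with at least 400 UMIs, neither ey (1.41, adjusted p = 0.0731) nor Optix (1.07, adjusted p = 0.101) was called.

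Of the genes that fell, btd had 33.2, 23.5 and 31.99 CPM at 6-10 h, against 78.1 and 74.4 CPM at 2-4 h (log2 fold change -1.80 ± 0.51, adjusted p = 0.00692). Its call was lost with experiment as a block (-0.63, adjusted p = 0.236) and without experiment 11 (-1.45, adjusted p = 0.115). hbn had 19.3, 18.1 and 17.01 CPM at 6-10 h, against 36.04 and 25.2 CPM at 2-4 h (log2 fold change -1.23 ± 0.44, adjusted p = 0.0296). The groups did not overlap for either gene, but the call of hbn was lost without experiment 1, 3, 10 or 11, at estimates between -1.23 and -0.58. oc stood at 276.8, 257.6 and 249.01 CPM at 6-10 h, against 334.5 and 322.4 CPM at 2-4 h (log2 fold change -0.76 ± 0.32, adjusted p = 0.0612). ems and toy changed by 0.17 ± 0.50 and 0.25 ± 0.42 on the log2 scale. Leaving out experiment 11 or 12 left 1 sum of 2-4 h, which the fit assumes to vary like the other windows, and 3 of the 10 genes were then called in each case.

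In the comparison of 10-14 h with 6-10 h, the head gap genes btd and ems and the brain gene hbn fell, no gene of the 10 rose, and 7 did not pass the test. Of all genes tested 5.09% were called lower and 11.5% higher here, and the median log2 fold change was -0.692 over the 10 genes, against -0.18 over all genes.

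btd had 6.32, 2.58 and 6.86 CPM at 10-14 h (experiments 1, 3 and 10), against 33.2, 23.5 and 31.99 CPM at 6-10 h, a log2 fold change of -2.53 ± 0.50 (adjusted p = 4.44e-04) that was called without any single experiment. hbn had 7.90, 4.31 and 5.88 CPM at 10-14 h, against 19.3, 18.1 and 17.01 CPM at 6-10 h (-1.64 ± 0.42, adjusted p = 0.00523). ems had 43.9, 34.03 and 64.01 CPM at 10-14 h, against 132.97, 91.3 and 154.7 CPM at 6-10 h (-1.49 ± 0.45, adjusted p = 0.0190). In each experiment all 3 genes were lower in the later window. Only btd was called when experiment 1, 3 or 10 was left out, with hbn then between -1.73 and -1.36 and ems between -1.40 and -1.26. ems also lost its call without experiment 12 (-1.36, adjusted p = 0.0517).

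The 2 windows came from the same 3 experiments, and with experiment as a block 6 genes were called lower, where 22.7% of all genes tested were called lower in that fit. The added genes were oc (-0.73, adjusted p = 0.00140), Optix (-1.07, adjusted p = 0.00359) and eya (-0.64, adjusted p = 0.0489). oc had 166.5, 157.6 and 173.1 CPM at 10-14 h, against 276.8, 257.6 and 249.01 CPM at 6-10 h, with no overlap. Without the block, the log2 fold changes of ey, toy and so were -0.43 ± 0.40, -0.08 ± 0.37 and -0.16 ± 0.44. dac was the one gene with a positive estimate, 0.32 ± 0.40 (adjusted p = 0.647), with 99.6, 104.2 and 87.2 CPM at 10-14 h, against 74.5, 98.5 and 46.97 CPM at 6-10 h.

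After 10-14 h no change was called. In the comparison of 16-20 h with 10-14 h, 0 of the 10 genes passed the edgeR test, 0 had an unadjusted p under 0.05, and DESeq2 called 0. Few genes were called here, with 1.01% of all genes tested called higher and 0.0660% lower. The log2 fold changes of the 10 genes ran between -0.50 ± 0.36 for eya and 0.69 ± 0.49 for btd. dac was at 107.4, 130.6 and 83.7 CPM at 16-20 h, against 99.6, 104.2 and 87.2 CPM at 10-14 h, and the groups overlapped. Adjoining comparisons share a window and are not independent of each other.

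**Figure D2:**
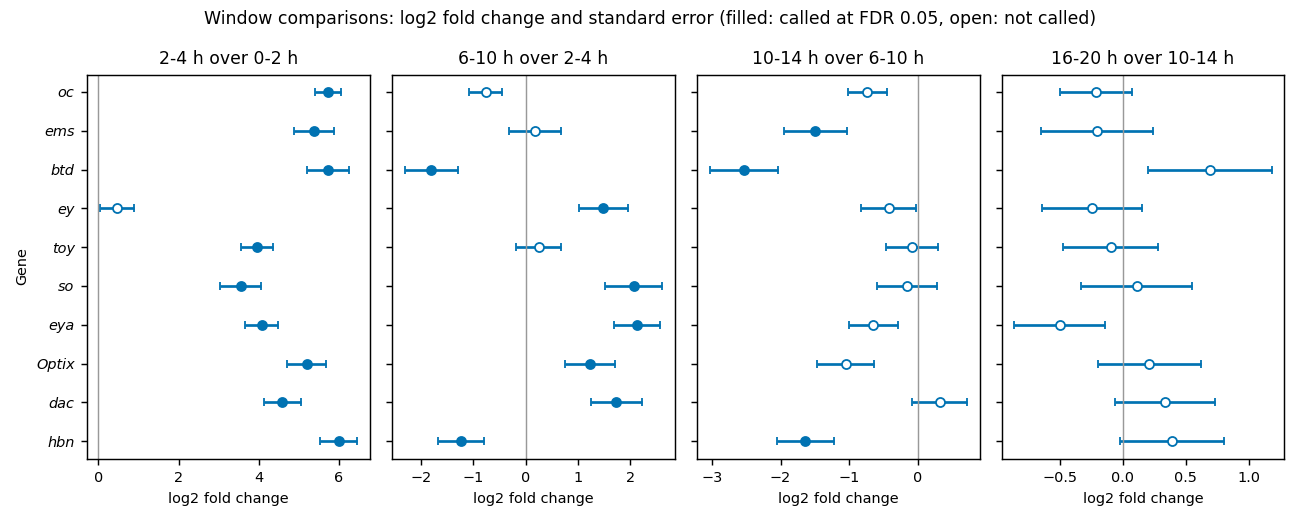
Log2 fold change of each gene (x axis, a separate scale for each panel) with its standard error in the 4 window comparisons, later window over earlier window, with filled points for genes called at an FDR of 0.05 and open points for the others. At 2-4 h over 0-2 h all genes but ey are filled, at 10-14 h over 6-10 h btd, ems and hbn are filled at negative values, and at 16-20 h over 10-14 h no point is filled.

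Other genes of the same pathways were set beside these 10. Of 16 other head patterning genes, 12 rose and 2 fell at 2-4 h over 0-2 h, with a median log2 fold change of 4.59, against 0.0498 over all genes. The largest rises were those of knrl (6.66 ± 0.43), a nuclear receptor gene of the knirps family, and the head Hox gene Dfd (6.02 ± 0.46). bcd, the maternal morphogen gene, fell by 1.74, and cnc, a leucine zipper gene of the mandibular segment, fell by 0.79 on the log2 scale. At 6-10 h over 2-4 h, 5 of the 16 rose and 6 fell, led by Sp1 (4.02 ± 0.68), the zinc finger relative of btd, and the Hox gene pb (3.71 ± 0.65) on one side and the gap genes gt (-3.50 ± 0.59) and tll (-2.69 ± 0.55) on the other. Of all genes tested, 17.6% were called higher and 14% lower there. The median log2 fold change was -0.46 over the list, against 0.304 over all genes. At 10-14 h over 6-10 h, 5 fell and 0 rose, led by hb (-2.03 ± 0.33) and gt (-1.96 ± 0.56). In that comparison 5.09% of all genes were called lower, and the list median was -0.707, against -0.18 over all genes. At 16-20 h over 10-14 h edgeR called 0.

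Of 12 other genes of the eye network, 7 rose and 0 fell at 2-4 h over 0-2 h, with a median of 2.19. The largest rises were those of dan (6.84 ± 0.64), a pipsqueak-domain gene that acts with ey, and hth (6.72 ± 0.43), a homeodomain cofactor. At 6-10 h over 2-4 h, 5 rose, led by toe (6.19 ± 0.94), a paired-box gene, and gl (5.46 ± 1.26), the zinc finger gene of photoreceptors. In the same comparison 2 fell, namely danr (-4.54 ± 0.71) and dan (-4.27 ± 0.65). The shares of all genes were 17.6% higher and 14% lower there, and the list median was 1, against 0.304 over all genes. At 10-14 h over 6-10 h 2 fell, the proneural gene ato (-5.26 ± 0.88) and Six4 (-3.24 ± 0.58), a relative of so in the mesoderm. In that comparison 5.09% of all genes were called lower, and the list median was -0.661, against -0.18 over all genes. At 16-20 h over 10-14 h edgeR called 0. The list is short and no test of the list was made.

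The time courses most like each gene were read from Pearson's r of log2(CPM + 1) over the 38 sums, which share libraries within an experiment, so r is a description. oc was nearest to ptc (r = 0.988), the Hedgehog receptor gene, then grh and CG43163. ems was nearest to disco (r = 0.975), then en and Dtg. btd was nearest to the gap gene Kr (r = 0.960), then hkb and sca, and hbn to CG7884 (r = 0.965), then Ir68a and bib. Of the eye genes, ey was nearest to gsb-n (r = 0.933), a paired-box gene of the nerve cord, then CG8641 and NaCP60E. toy was nearest to the transposable element FBti0019720 (r = 0.979), then tty and vn. so was nearest to kn (r = 0.984), a gene of the collier family in head, muscle and neurons, then dve and ab. eya was nearest to mirr (r = 0.985), then hh and edl, and Optix to fj (r = 0.982), then edl and comm2. dac was nearest to ham (r = 0.988), a zinc finger gene of neurons, then sm and CG31038. The comparison was made over 12116 genes.

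The inferred age of each cell gave a second time axis. Over bins of 2 h, 8 of the 10 genes had their highest mean level in a bin that began before 8 h, and so and dac had it later. These bins depended on the setting. In bins of 1 h, 7 genes had their highest mean before 8 h and that of eya began at 10 h, and with UMIs summed over experiments the highest bin of dac began at 12 h. Without experiment 2 the highest bin of toy began at 8 h. At 4-6 h the means were 134.97 ± 56.7 CPM for ems, 67.9 ± 29.3 CPM for btd, 116.1 ± 16.6 CPM for eya and 79.6 ± 33.9 CPM for Optix (SD, n = 7 experiments). dac had its highest mean, 113.8 ± 31.9 CPM (SD, n = 3), at 16-18 h. The mean of so was 40.3 ± 27.7 CPM (SD, n = 4) at 12-14 h and 51.9 ± 9.57 CPM (SD, n = 3) at 14-16 h, and the start of its highest bin moved between 8 and 16 h with the setting. hbn had its highest mean at 2-4 h, where experiment 4 stood at 268.2 CPM from 18 UMIs and the other 5 experiments at 6.02 to 74.3 CPM. With UMIs summed over experiments, or without experiment 4, its highest bin was 4-6 h.

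Co-detection within cells showed which of these genes occur together. For each pair, the cells with at least 1 UMI of both genes were divided by the number that independent detection would give inside strata of experiment, 2-h bin of inferred age and decile of UMIs per cell. Genes with at least 50 expected cells gave ratios slightly above 1, with medians of 1.07 to 1.11 over 5740 to 9396 genes per member. At most 0.292% of these genes reached 2. Over the 45 pairs of the 10 genes the median ratio was 1.29, and 4 pairs (8.89%) reached 2. The strata share libraries, and no test was made.

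The highest ratio was that of toy and dac, with 870 cells that held both, against 327.3 cells given by independent detection, a ratio of 2.66. Over the 6 experiments with at least 5 expected cells it was 2.93 ± 1.11 (SD), and above 1 in each. By experiment, the ratio was 4.29 in experiment 1, 3.73 in experiment 3, 3.55 in experiment 2, 2.55 in experiment 12, 2.07 in experiment 11 and 1.38 in experiment 10. It was 3.75 at an inferred age of 4-10 h and 2.26 at 10-18 h.

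so and eya, whose proteins form one complex, occurred together in 939 cells, against 460.2 cells given by independent detection, a ratio of 2.04. The ratio was above 1 in all 7 experiments, from 1.42 in experiment 10 to 2.79 in experiment 1, with a mean of 2.17 ± 0.52 (SD). With all experiments together the ratio was 2.02 at 4-10 h and 2.31 at 10-18 h. Over experiments it was 2.04 ± 0.38 (SD, n = 7) at 4-10 h and 2.77 ± 1.32 (SD, n = 3) at 10-18 h. By contrast so and Optix, which encode related homeodomain proteins, gave 1.22.

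hbn paired with most of the eye genes. It reached 2.45 with dac (78.9 cells expected from independent detection), 2.08 with toy (147.4 expected), 1.89 with Optix, 1.81 with eya, 1.80 with ey, 1.68 with so and 1.62 with oc. With ems and btd it gave 1.14 and 1.24. Of its 9 ratios, only those with dac and toy reached 2. Over experiments these were 2.29 ± 1.29 with dac (SD, n = 4) and 2.37 ± 0.80 with toy (SD, n = 5). The ratio with ey was 1.80 ± 0.77 (SD, n = 4), and that with oc was above 1 in 6 of 7 experiments.

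ey and toy, the paired-box pair, gave 1.504 over all ages (168.9 cells expected), and the ratio was 2.62 at 10-18 h (33.996 expected), against 1.16 at 4-10 h (111.5 expected). At 10-18 h it was 2.83 ± 0.58 over experiments (SD, n = 3) and at 4-10 h 1.23 ± 0.25 (SD, n = 5). oc paired with toy (1.62), and eya with Optix (1.62, and 2.24 at 10-18 h). Over all ages the pairs among the head gap genes oc, ems and btd gave lower ratios, at 1.16 to 1.19. None of the 17 pairs that involve ems or btd exceeded 1.36 over all ages. At 10-18 h, the ratios were 1.43 for oc and ems, 1.44 for oc and btd, and 1.64 for ems and btd. btd reached 2.11 with eya (24.6 cells expected) and 1.98 with Optix (24.3 expected) there. Of the 17 pairs, only btd and hbn gave a lower ratio at 10-18 h than over all ages, 0.98 (3.05 expected).

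Experiment 10 gave the lowest ratio of the experiments counted for toy and dac, for so and eya and for toy and hbn, and experiment 1 the highest. Without experiment 1, no pair reached 2, with toy and dac at 1.98, toy and hbn at 1.80, and so and eya and dac and hbn at 1.74 each. Without experiment 10, toy and dac were at 3.51, and 5 pairs reached 2. In cells with at least 400 UMIs, 2 pairs reached 2, toy and dac (2.13) and dac and hbn (2.08).

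**Figure D3:**
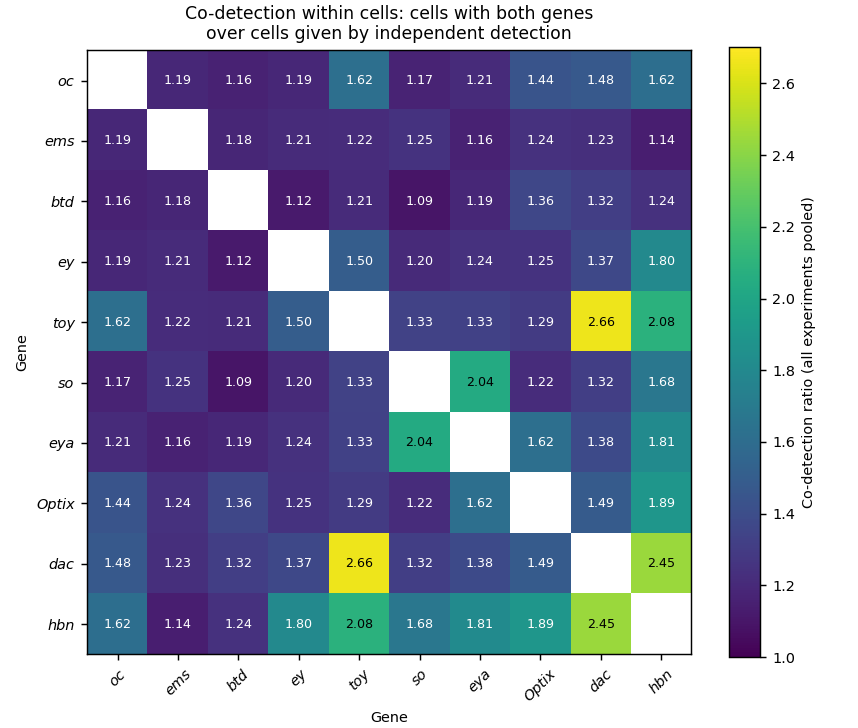
Co-detection ratio of each pair of the 10 genes (rows and columns), printed in each cell and coloured from 1 to 2.7, over all experiments and ages. The bright cells join toy, dac and hbn, and so with eya, whereas the rows of ems and btd are dark throughout, with no value above 1.36.

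**Figure D4:**
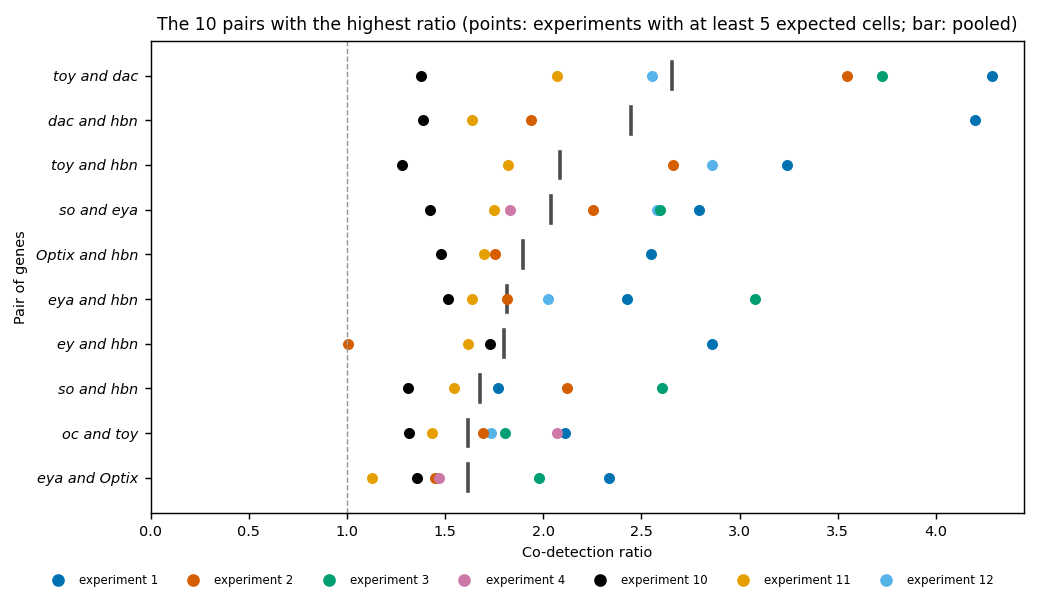
Co-detection ratio (x axis) of the 10 pairs with the highest ratios, with 1 point per experiment that had at least 5 expected cells and a bar at the ratio over all experiments. The dashed line marks independent detection at 1. Experiment 10 lies below the bar in all 10 pairs, at 1.38 for toy and dac, and experiment 1 lies at 4.29.

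For partners beyond the 10 genes, the rule asked for at least 50 cells with both and a ratio above 1 in every counted experiment. A gene with fewer expected cells thus needed a higher ratio to enter, and one with under 50 is outside the share at 2 given above. The partner of highest ratio was a chromosomal neighbour for hbn, ems and btd. For hbn it was Rx (6.96, 26.3 cells expected), the retinal homeobox gene, which lies 17638 bp from hbn on 2R. Only 2 experiments had at least 5 expected cells for this pair, with a mean of 7.53 ± 7.15 (SD). The first partner of ems was E5 (2.31, 47.2 cells expected), its homeobox neighbour at 26937 bp on 3R, with 2 experiments counted. The first partner of btd was Sp1 (1.94, 1032 cells against 531.2), its zinc finger neighbour at 32090 bp on X, with 7 experiments counted (1.91 ± 0.75, SD). The other partners of these genes under the rule were CG14204 and dac for hbn, CG7560 and Nepl10 for ems, and CG17141 and CG9837 for btd, all on other chromosome arms than the member. CG7560 rests on 2 counted experiments and CG14204 on 1.

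Rx, which acts in the eye and brain anlagen of many animals, was also a leading partner of dac (3.14, 95.3 cells expected), and gave 2.27 with Optix, 2.14 with toy and 1.95 with ey. The leading partners of eya were gl (2.69, 54 cells against 20.1), the photoreceptor gene, the visual system homeobox gene Vsx1 (2.05, 788 cells against 385.2) and so. Vsx1 was a leading partner of Optix as well (2.41), after lncRNA:CR43870 (3.51, 49.3 cells expected) and the forkhead gene fd102C (2.54). toy had the head homeobox gene Gsc (2.58, 109.5 cells expected) among its leading partners, and dac had RunxA (3.65, 28.8 expected). For oc the third was tbc (2.35). For so they were FBti0019497, RhoGAP102A and lncRNA:CR45361 (2.38, 224.3 expected), and for ey sisRNA:CR46360, lncRNA:CR45919 and lncRNA:CR44024 (2.18 to 2.98). Several of these partners rest on 2 counted experiments, namely gl with eya (2.52 ± 1.48, SD), RunxA with dac (4.05 ± 2.85), FBti0019497 with so (2.92 ± 1.77), and sisRNA:CR46360 (2.998 ± 1.54) and lncRNA:CR44024 (2.44 ± 0.78) with ey.

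The highest ratio among these leading partners, 8.95, joined toy and FBti0061406, a copy of the INE-1 transposable element (36.6 cells expected). This element lies at 4:999517-1001425 inside toy, on the same strand and outside its annotated exons, and it held 973 UMIs beside the 13497 of toy. It was also the first partner of dac (5.17) and the second of oc (2.39), after FBti0061385 (2.51), another element inside toy. The ratio of FBti0061406 with dac (5.48 ± 4.39, SD) and that of FBti0061385 with oc (2.79 ± 0.77) rest on 2 counted experiments each. toy and ey hold 15 and 7 annotated elements with rows of their own, and oc 1 with no UMI. With the UMIs of all same-strand elements inside toy added to it, a setting chosen after the data were seen, the log2 fold changes of toy were 4.04, 0.25, -0.13 and -0.14 in the 4 comparisons, with the same calls.

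Cells were also grouped by lists of marker genes. A cell was assigned to a list when it held at least 3 UMIs of that list and more than of any other, in 2 spans of inferred age, 4-10 h (12 lists, 4 to 7 experiments) and 10-18 h (12 lists, 3 experiments). These are cuts in a count and not cell types, since up to 71.95% of the cells of a list stood exactly at 3 UMIs. In a joint F test over the lists, with experiment as a block, 9 of the 10 genes differed between lists at 10-18 h and 8 at 4-10 h. This is close to the share of all genes, of which 72.9% and 69.2% were called, so the count says little about these genes in particular. The ones that did not pass were btd at 10-18 h (adjusted p = 0.50) and eya and hbn at 4-10 h (adjusted p = 0.262 and 0.332). Without experiment 1, 4 genes (dac, ey, oc and toy) were called at 10-18 h. The share of all genes called in that fit was not taken, so this count has no baseline.

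At 10-18 h dac had its highest mean in the neuron list. It had 287.4, 338.8 and 244.1 CPM in cells of the neuron list (experiments 1, 3 and 10), and the next highest means were 122.6 ± 119.9 CPM in the neural progenitor list and 92.4 ± 17.3 CPM in the somatic muscle list (SD, n = 3). Its mean was 52.8 ± 15.8 CPM in the fat body list. In all 3 experiments the neuron list lay above the muscle and fat body lists. At 4-10 h the highest mean of dac was instead in the midgut list, at 146.5 ± 163.6 CPM (SD, n = 5), and the neuron list had 55.1 ± 31.9 CPM (SD, n = 7). The 10 neuronal marker genes each gave a co-detection ratio with dac of 1.28 to 1.81, led by Syt1 (1.81) and cac (1.80), genes of synaptic release.

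At 10-18 h toy and ey had their highest means in the 2 neural lists. toy had 114.03, 183.4 and 81.96 CPM in the neuron list and 157.3, 209.5 and 69.6 CPM in the neural progenitor list, and its mean was at most 47.7 ± 9.74 CPM in the other 10 lists (SD, n = 3). ey had 56.7, 64.5 and 42.9 CPM in the progenitor list and 26.4, 40.3 and 24.5 CPM in the neuron list, and the progenitor values rest on 22, 4 and 8 UMIs. The neuron values of ey overlapped those of the glia list (25.3 ± 15.3 CPM) and the midgut list (21.7 ± 18.8 CPM, SD, n = 3). eya had 206.4, 354.5 and 128.6 CPM in the progenitor list, above its 83.7, 103.4 and 69.7 CPM in the somatic muscle list in each experiment. hbn had 38.7, 80.6 and 5.36 CPM in the progenitor list, which rest on 15, 5 and 1 UMIs. At 4-10 h the highest means of toy and ey were in the midgut list. In that list, 47.4% to 66.7% of the cells of an experiment stood exactly at 3 UMIs. toy was at 114.8 ± 42.3 CPM there (SD, n = 5), against 84.97 ± 16.8 CPM in the neuron list and 76.4 ± 21.2 CPM in the progenitor list (SD, n = 7). ey was at 38.9 ± 20.9 CPM in the midgut list, within the spread of its 32.5 ± 16.03 CPM in the neuron list and 34.04 ± 31.96 CPM in the progenitor list. eya had its highest mean at 4-10 h in the glia list, at 155.4 ± 59.8 CPM (SD, n = 6). Its progenitor list (133.9 ± 43.3 CPM) and neuron list (126.3 ± 36.97 CPM, SD, n = 7) lay within that spread. At this age eya did not pass the joint F test between lists (adjusted p = 0.262).

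so had its highest mean in the somatic muscle list at both ages. At 10-18 h it had 105.2, 147.02 and 58.2 CPM there, against means of 11.6 to 48.3 CPM in the other lists. In each experiment the muscle list lay above the glia list, which had 31.3, 64.2 and 49.2 CPM. At 4-10 h the muscle list had 74.4 ± 48.5 CPM (SD, n = 6) and the epidermis list 53.97 ± 6.01 CPM (SD, n = 4), which lay within that spread. Its co-detection ratios with the 10 somatic muscle genes ran from 1.19 (Act57B) to 1.76 (Mlp60A), and with the visceral muscle genes bin, HLH54F, org-1 and bap from 1.29 to 1.496.

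oc had its highest mean in different lists at the 2 ages. At 10-18 h the epidermis list had 328.4, 340.8 and 304.03 CPM of oc, and the next means were 273.8 ± 148.5 CPM in the neural progenitor list and 265.98 ± 85.7 CPM in the glia list (SD, n = 3). These lists overlapped, and in experiment 1 the progenitor list (392.1 CPM) and the glia list (364.7 CPM) lay above the epidermis list. The fat body list had 95.8 ± 36.9 CPM. At 4-10 h the midgut list had 956, 669.4, 1258, 332.8 and 429.3 CPM in experiments 1, 2, 3, 10 and 11, with means of 165.7 to 322.6 CPM in the other 11 lists. The ratios of oc with the 5 genes of that list were 1.91 for dve and 1.22 for nub, against 1.04 for GATAe, 1.10 for mex1 and 1.06 for LManII. Of single marker genes, wrapper, a midline glia gene, gave 2.20 with oc (1012 cells, against 460.3). It was picked for its rank of 5 among the partners of oc. The glia list holds 8 genes and the others are not given here, so wrapper does not stand for that list.

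**Figure D5:**
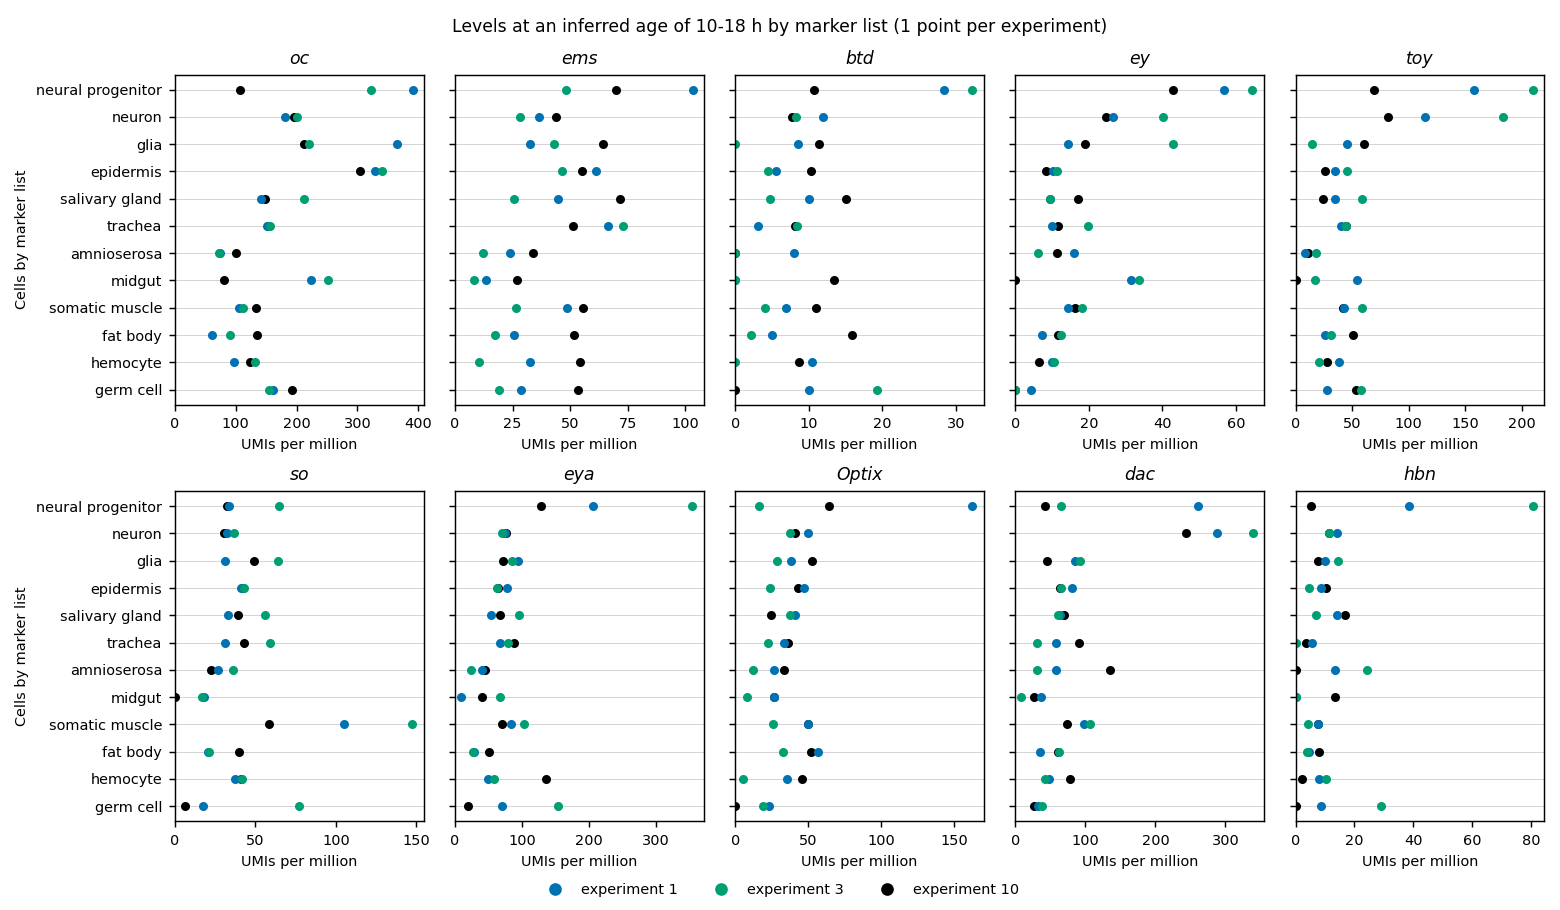
Level of each gene in CPM (x axis, from 0, a separate scale for each gene) in cells of 12 marker lists (rows) at an inferred age of 10-18 h, with 1 point per experiment. dac lies between 244.1 and 338.8 in the neuron list, so between 58.2 and 147.02 in the somatic muscle list, and oc between 304.03 and 340.8 in the epidermis list, with the highest points of the neural progenitor and glia lists above these.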

How the data were processed

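The scRNA data were used here, and the other assays of the study were not analysed here. Per the paper's methods and processing notes, the authors mapped reads with STAR 2.7.3a to BDGP6 (dm6), counted UMIs per gene and cell, filtered cells on UMIs, genes and ribosomal share, removed doublets with a modified DoubletFinder, and inferred each cell's age with a neural network. The deposited values are raw counts of UMIs, and the deposited cell table gives other values, namely the window, experiment and hours of age. No doublet caller was run again.

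The members and gene lists were chosen with earlier results of these data known. All 10 symbols matched, as did 22613 of 23932 rows. UMIs were summed over cells of 1 experiment and window (at least 100 cells) or 1 experiment and marker list (at least 50 cells, lists in at least 3 experiments). Tests used edgeR 4.0.16 (filterByExpr, TMM, quasi-likelihood F test, Benjamini-Hochberg FDR 0.05, R 4.3.3), with all 11 windows in 1 fit and no experiment term. DESeq2 1.42.0 was the other tool. Nothing says that experiments hold separate collections of embryos, so p-values measure the spread between experiments. Sums of the same experiment (107 pairs) deviated together from their windows, with a median r of 0.326, against -0.0572 for sums of different experiments (544 pairs), so experiment was also fitted as a replicate block. Both fits and the co-detection ratio were tested on simulated data. Named genes were the 10 members, for each the 3 genes of highest co-detection ratio (at least 50 cells with both, above 1 in every experiment with at least 5 expected) and the 3 of highest r over the sums, and the 2 of largest change per direction in each pathway list. The epidermis and fat body lists each lacked 1 gene row (Dsx-c73A, apoLTP). Alternatives were library sizes alone, no filter, the block, cells with at least 400 UMIs, cells with an age inside their window, a list cut of 5 UMIs, 1-h bins, quintiles of depth, and each experiment left out. The upper limits given for sums without a UMI cover counting error only, whereas SEs and SDs hold the spread between experiments.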

Additional observations from a re-analysis of the deposited data

Results flagged for a closer look

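Values of the 10 genes in the windows with 4 to 6 experiments (40 groups of 1 gene and 1 window) were searched for an experiment far from the others, where chance alone gives about 1 in 20 groups, and 6 were found. Experiment 1 was high at 3-7 h for 3 genes: Optix at 135.05 CPM, where the other 5 experiments lay between 52.3 and 72.7 CPM, oc at 360.3 CPM, where the others lay between 230.9 and 273.7 CPM, and dac at 55.2 CPM, where the others lay between 28.2 and 35.6 CPM. Its median inferred age in this window was 5.67 h, the highest of the 6 experiments, which ranged from 5.13 h. The part of age in these values was not tested.

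Experiment 2 was high at 1-3 h for hbn, at 21.6 CPM, and for eya, at 6.49 CPM, where the other 3 experiments lay between 5.35 and 7.38 CPM and between 2.15 and 2.74 CPM. This is the smallest sum of the series, with 462334 UMIs, and the value of eya there is 3 UMIs. Experiment 11 was high at 1-3 h for ey, at 6.86 CPM, where the others lay between 4.33 and 4.74 CPM.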

How the results depend on the processing

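The 9 calls of 2-4 h over 0-2 h and the absence of calls at 16-20 h over 10-14 h held under every setting, and no called value changed sign. With experiment as a replicate block, 6 genes were called lower at 10-14 h over 6-10 h in place of 3, and btd (-0.63) and Optix (1.04) lost their calls at 6-10 h over 2-4 h. No other window call was lost with it. Without the replicate block, 3 genes were called between marker lists at 4-10 h in place of 8. The share of all genes called was not taken in that fit or in the fits without 1 experiment. In cells with at least 400 UMIs, 2 pairs reached a co-detection ratio of 2 in place of 4. With 1 experiment left out, the number called ran from 3 to 7 at 6-10 h over 2-4 h, from 1 to 3 at 10-14 h over 6-10 h, from 6 to 8 between lists at 4-10 h and from 4 to 9 at 10-18 h, and the number of pairs at a ratio of 2 from 0 to 5. Of single log2 fold changes, 8 calls were lost and 4 gained under the other settings, and 22 were lost over the fits without 1 experiment. hbn at 6-10 h over 2-4 h was the least stable, at -0.79 with DESeq2, -0.76 with library sizes alone, -1.06 without the filter and -0.98 in cells aged inside their window, none called. The causes were not tested. Sparse detection limits the pairs, since several rest on fewer than 5 expected cells in an experiment.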

Other observations

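Co-detection with a list of 4 somatic gonad genes (tj, Sox100B, Six4 and Wnt2) reached 1.68 for eya (153.3 cells expected) and 1.55 for Optix (129.2 expected), where eya is known to act in the somatic gonad. Six4, which is also in the list of eye network genes, gave 1.67 with eya, and the other 3 genes gave 1.32 to 1.35. The 11 genes of the larval photoreceptor list together gave 1.22 with eya (86.1 expected), and gl alone gave 2.69. The median of 1.09 for eya is over single genes at 1 UMI, whereas a list needed 2 UMIs. It is therefore no baseline for the ratios of either list.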
